A study of Homo sapiens with 12 samples.

Results

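Chromatin regulators, grouped under the heading of mutation in B-cell lymphoma, were followed in OCI-Ly7, a cell line established from a diffuse large B-cell lymphoma. They were EZH1, EZH2, KMT2D, CREBBP, EP300, ARID1A, TET2, DNMT1 and PRDM2, and all probe sets whose array annotation gives one of these symbols alone were taken. This gave 31 of 54675 probe sets, for 9 of the 19775 genes with such a probe set. EZH1 has 5 probe sets, KMT2D 6, CREBBP 4, EP300 2, ARID1A 4, TET2 3 and PRDM2 5, while EZH2 and DNMT1 have 1 each. How often each gene is mutated in this lymphoma, and mutations in these cells, were not analysed here.

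Cells received 1 μM PLS-123, 10 μM ibrutinib, 1 μM ibrutinib or vehicle for 24 hours, and RNA of 3 samples per group was hybridized to 12 Affymetrix U133 Plus 2.0 arrays. Ibrutinib and PLS-123 are covalent inhibitors of Btk, the kinase that relays the B-cell receptor signal inside the cell. The line was the only model used, and nothing in the labels tells if samples A, B and C of a group came from separate cultures, so p values measure the spread between these samples, which may be technical. Values are log2 intensities, a fold change is a difference between group means on that scale, and a change was called at an adjusted p under 0.05 (limma, Benjamini-Hochberg over 54613 probe sets). A probe set is called dim when its mean lies under 3.87, the median of all probe sets, and 8 of the 31 were dim. The brightest probe set of a gene stands for it, with the others given for agreement.

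The products of these genes write, read or remove marks on chromatin or, for ARID1A, take part in its remodelling. EZH1 and EZH2 are alternative catalytic subunits of Polycomb repressive complex 2 (PRC2), which places the silencing mark H3K27me3 on histones. EZH2 is the form of the dividing germinal centre B cell, the cell from which this lymphoma arises, and EZH1 is the form more typical of resting cells. KMT2D methylates H3K4 at enhancers, CREBBP and EP300 acetylate histones there, and ARID1A is a subunit of the SWI/SNF remodelling complex. TET2 oxidizes 5-methylcytosine, DNMT1 copies DNA methylation after replication, and PRDM2 is a PR domain protein linked to methylation of H3K9.

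The arrays carried a B-cell signal in every group. None of the 8 measured B-cell markers, among them MS4A1, CD79A, CD79B and PAX5, was dim, and their summed intensity was 12411 to 12987 with PLS-123, 12959 to 13166 with 10 μM ibrutinib, 16639 to 17146 with 1 μM ibrutinib and 16548 to 17144 with vehicle. The markers themselves moved. With PLS-123 over vehicle 6 fell and 2 rose (75% and 25%, beside 12.8% and 7.54% over all genes). With 10 μM ibrutinib over vehicle 4 fell and 1 rose (50% and 12.5%, beside 5.82% and 6.71%). Only part of the markers of other cell types was dim, namely 6 of 10 for T and NK cells, 5 of 7 for myeloid cells and 5 of 9 for stromal and epithelial cells. Their summed intensities in the order PLS-123, 10 μM ibrutinib, 1 μM ibrutinib and vehicle were 153 to 182, 134 to 170, 148 to 153 and 149 to 165 for T and NK cells. For myeloid cells they were 65.2 to 68.1, 61.9 to 69.2, 65.6 to 67.6 and 65.9 to 69.7, and for stromal and epithelial cells 502 to 551, 441 to 466, 505 to 523 and 495 to 545. The log2 difference between the 3' and 5' control probe sets of ACTB, which grows as RNA shortens, was 2.83, 2.80 and 3.17 on the PLS-123 arrays A, B and C. It was 2.69, 2.70 and 2.83 with 10 μM ibrutinib, 2.87, 2.55 and 2.58 with 1 μM ibrutinib, against 2.68, 2.59 and 2.65 with vehicle, so that every vehicle array was below all PLS-123 arrays and all those of 10 μM ibrutinib. The same log2 difference for GAPDH averaged 0.449 ± 0.015 with PLS-123, 0.390 ± 0.0081 with 10 μM ibrutinib, 0.274 ± 0.033 with 1 μM ibrutinib, against 0.313 ± 0.040 with vehicle (SD, n = 3 arrays each).

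Among the 9 genes, 1 (EZH1) rose with PLS-123 over vehicle and 0 fell at their brightest probe set, against 7.54% higher and 12.8% lower over all genes. With 10 μM ibrutinib 0 rose and 0 fell by limma, against a background of 6.71% higher and 5.82% lower. The share called, 11.1% with PLS-123, was no larger than the 20.4% of all genes called in either direction. The median fold change of the 9 genes was 0.06 with PLS-123, beside -0.04 over all genes, and 0.10 with 10 μM ibrutinib, beside -0.02. Counted by probe set, 3 of 31 rose and 3 fell with PLS-123, against 6.36% higher and 10.4% lower over all probe sets, and 1 rose and 0 fell with 10 μM ibrutinib, against 5.39% higher and 4.62% lower. Most of these genes thus gave no call at their brightest probe set, and the calls that did occur lay in EZH1, KMT2D, EP300 and PRDM2.

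**Figure D1:**
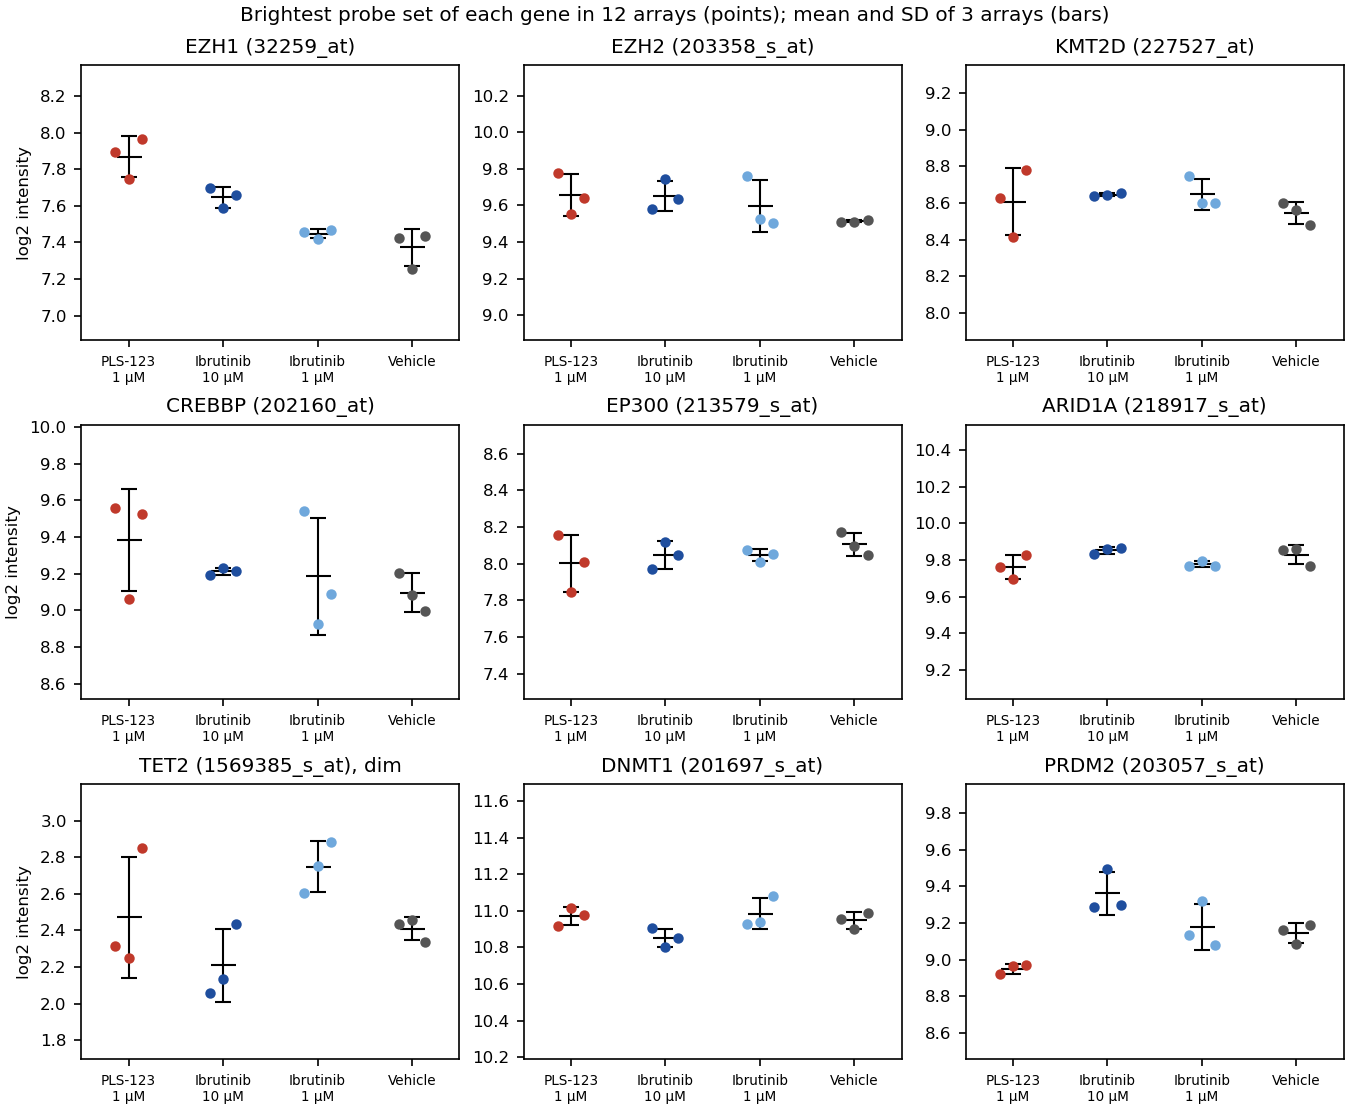
Log2 intensity of the brightest probe set of each of the 9 genes on the 12 arrays, by group, with the mean and SD of 3 arrays as bars and 1.5 log2 units per panel. EZH1 is the gene whose 3 PLS-123 arrays, at 7.75 to 7.97, and 3 arrays of 10 μM ibrutinib, at 7.59 to 7.70, lie above all vehicle arrays by the clearest margin, while DNMT1 stays between 10.80 and 11.08 on all arrays.

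The clearest rise was in EZH1 (chromosome 17, 42700275 to 42745040, GRCh38.p14). Its brightest probe set, 32259_at, read 7.89, 7.75 and 7.97 on the PLS-123 arrays. Arrays of 10 μM ibrutinib gave 7.70, 7.59 and 7.66, those of 1 μM ibrutinib 7.46, 7.42 and 7.47 and those of vehicle 7.43, 7.26 and 7.44. The PLS-123 arrays were highest and did not overlap those of any other group, and the arrays of 10 μM ibrutinib lay above those of 1 μM ibrutinib and vehicle, which overlapped each other. EZH1 was 1.41-fold higher with PLS-123 than with vehicle (log2 fold change 0.50 ± 0.08 SE, limma adjusted p = 0.0011), a call kept in all 22 alternative analyses. With 10 μM ibrutinib the log2 fold change was 0.27 ± 0.08 (adjusted p = 0.0587), and 4 of the alternatives called it. With 1 μM ibrutinib it was 0.07 ± 0.08 (adjusted p = 0.948). At the matched dose of 1 μM, EZH1 was 1.34-fold higher with PLS-123 than with ibrutinib (log2 fold change 0.42, 95% confidence interval 0.24 to 0.60, limma adjusted p = 0.0045). That call was lost with the ACTB difference as a covariate (0.34, adjusted p = 0.0879). It was also lost by the methods' t-test, the study's own test but with a Benjamini-Hochberg adjustment added here (adjusted p = 0.0649). The median over the 5 EZH1 probe sets changed by 0.20 in this comparison, not called (adjusted p = 0.146).

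The other 4 probe sets of EZH1 did not all follow. Probe set 211310_at read 5.64, 5.32 and 5.41 with PLS-123, while 10 μM ibrutinib gave 5.15, 5.32 and 5.33, 1 μM ibrutinib 5.19, 4.68 and 4.52 and vehicle 4.62, 4.59 and 4.95. All arrays of PLS-123 and of 10 μM ibrutinib exceeded those of vehicle, and array A of 1 μM ibrutinib stood above the rest of its group. The log2 fold changes over vehicle were 0.74 with PLS-123 (limma adjusted p = 0.0048) and 0.55 with 10 μM ibrutinib (adjusted p = 0.0398). With the ACTB difference as a covariate they were 0.51 (adjusted p = 0.174) and 0.47 (adjusted p = 0.0881), neither called. Nor were they called by the methods' t-test (adjusted p = 0.0675 and 0.117), and under quantile normalization 10 μM ibrutinib gave 0.53 (adjusted p = 0.051). The call with 10 μM ibrutinib was also lost without vehicle array A or B, without any single array of 10 μM ibrutinib or without PLS-123 array C (adjusted p 0.0539 to 0.145). Probe sets 203249_at, 239197_s_at and 239198_at had log2 fold changes of 0.15, 0.14 and -0.02 with PLS-123, none called, so that 2 of 5 EZH1 probe sets rose and 3 were not called. Which transcripts each probe set reads was not analysed here.

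EZH2 (chromosome 7, 148807383 to 148884291), the partner of EZH1 in the choice of catalytic subunit, has the single probe set 203358_s_at. It read 9.78, 9.55 and 9.64 with PLS-123, while 10 μM ibrutinib gave 9.58, 9.74 and 9.63, 1 μM ibrutinib 9.76, 9.53 and 9.50 and vehicle 9.51, 9.51 and 9.52. The vehicle arrays were close together and lay below all PLS-123 arrays, yet the log2 fold change was only 0.14 (95% confidence interval -0.06 to 0.34, limma adjusted p = 0.341). With 10 μM ibrutinib it was also 0.14 (adjusted p = 0.44), and no alternative called either. Groups did not overlap in 3 of the 9 genes with PLS-123 over vehicle, beside 38.8% of all genes.

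The start regions of EZH1 and EZH2 are shown because the genes are alternatives for 1 role and 1 of them was called, and that of DNMT1 for its shared word. Sequences are those of RefSeq on GRCh38.p14, 5′ to 3′ on the minus strand, with the motif in capitals. E2F words (TTTCCCGC, TTTCGCGC, TTTGCCGC or TTTGGCGC, on either strand) were searched in windows of 250 bases before to 50 after each start, with FOXO (TGTTTAC), the E-box of MYC (CACGTG) and the CRE (TGACGTCA). The words were chosen after the sequences had been read. The 250 bases before the start of EZH1 (chr17:42745041-42745290) hold an E2F word:
EZH1: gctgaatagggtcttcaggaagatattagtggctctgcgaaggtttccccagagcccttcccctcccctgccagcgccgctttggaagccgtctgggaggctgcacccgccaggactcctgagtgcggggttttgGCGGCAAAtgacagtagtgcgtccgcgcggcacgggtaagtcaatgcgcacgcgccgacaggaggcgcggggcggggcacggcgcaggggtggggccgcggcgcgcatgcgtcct
The stretches below lie across or after the start. They show the FOXO word of EZH1 (chr17:42744991-42745011), the E2F word of EZH2 (chr7:148884274-148884291) and the E2F word that spans the start of DNMT1 (chr19:10194939-10194964):
EZH1 FOXO stretch: ggtgagtgaGTAAACAagcct
EZH2 E2F stretch: gTTTGGCGCtcggtccgg
DNMT1 E2F stretch: tcggtttccGCGCGAAAagccggggc
The 9 genes have 14 such windows. E2F words occurred in 3 of the 14, those of EZH1, EZH2 and DNMT1, beside 3.31% of all 35116 windows. FOXO words occurred in 2 of the 14, of EZH1 and TET2 (3.42% of all windows), the E-box in 2, of KMT2D and TET2 (7.26%), and the CRE in 0 (1.85%). A match describes the letters only, and EZH1, which rose, and DNMT1 and EZH2, which were not called, all carry an E2F word.

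KMT2D (chromosome 12, 49018978 to 49060794) was not called at its brightest probe set. Probe set 227527_at read 8.63, 8.41 and 8.78 with PLS-123, while 10 μM ibrutinib gave 8.64, 8.64 and 8.65, 1 μM ibrutinib 8.75, 8.60 and 8.60 and vehicle 8.60, 8.56 and 8.48. The groups PLS-123 and vehicle overlapped, and the log2 fold change was 0.06 (95% confidence interval -0.14 to 0.27, limma adjusted p = 0.735). Its next probe set, 231974_at, read 6.74, 6.57 and 6.76 with PLS-123, while 10 μM ibrutinib gave 6.87, 6.91 and 7.02, 1 μM ibrutinib 6.85, 6.98 and 6.98 and vehicle 6.93, 7.14 and 7.01. Here the PLS-123 arrays were the lowest and overlapped no other group, and the log2 fold change over vehicle was -0.34 (adjusted p = 0.0183). That call was lost without vehicle array B (-0.28, adjusted p = 0.0863), without PLS-123 array B (-0.28, adjusted p = 0.0754), by the methods' t-test (adjusted p = 0.107) and with the ACTB difference as a covariate (-0.34, adjusted p = 0.139). The other 4 KMT2D probe sets, 1 of them dim, ranged from -0.24 to 0.24 and gave no call.

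CREBBP (chromosome 16, 3725054 to 3880713) and its paralog EP300 (chromosome 22, 41092592 to 41180077), the acetyltransferases, each had probe sets that went opposite ways. CREBBP 202160_at read 9.56, 9.06 and 9.53 with PLS-123, while 10 μM ibrutinib gave 9.19, 9.23 and 9.21, 1 μM ibrutinib 9.54, 8.92 and 9.09 and vehicle 9.21, 9.08 and 8.99. PLS-123 arrays A and C and array A of 1 μM ibrutinib were high, PLS-123 array B lay among the vehicle arrays, and the log2 fold change with PLS-123 was 0.29 (95% confidence interval -0.04 to 0.62, limma adjusted p = 0.241). With the ACTB difference as a covariate it was -0.03 (adjusted p = 0.958). CREBBP 211808_s_at had a log2 fold change of -0.28 (adjusted p = 0.0622) and 228177_at of -0.06 (adjusted p = 0.737). The dim 235858_at had -0.17 (adjusted p = 0.246), so that 3 of 4 CREBBP probe sets were negative, against the brightest, and none was called.

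EP300 213579_s_at, its brightest probe set, read 8.15, 7.84 and 8.01 with PLS-123, while 10 μM ibrutinib gave 7.97, 8.12 and 8.05, 1 μM ibrutinib 8.08, 8.01 and 8.05 and vehicle 8.17, 8.10 and 8.05. The groups overlapped (log2 fold change with PLS-123 -0.10, limma adjusted p = 0.499). EP300 202221_s_at read 8.37, 8.07 and 8.44 with PLS-123, while 10 μM ibrutinib gave 7.93, 7.97 and 7.95, 1 μM ibrutinib 8.38, 7.65 and 8.02 and vehicle 7.86, 7.74 and 7.90. The same arrays were high as for CREBBP 202160_at, PLS-123 A and C and 1 μM ibrutinib A, and 2 of these, PLS-123 C and 1 μM ibrutinib A, had the largest ACTB differences. The log2 fold change with PLS-123 was 0.46 (adjusted p = 0.0485), and with the ACTB difference as a covariate 0.14 (adjusted p = 0.724). The call was lost in 11 of 20 alternatives, among them leaving out any vehicle array, any array of 10 μM ibrutinib, array C of 1 μM ibrutinib or PLS-123 array A or C (adjusted p 0.0605 to 0.169).

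**Figure D2:**
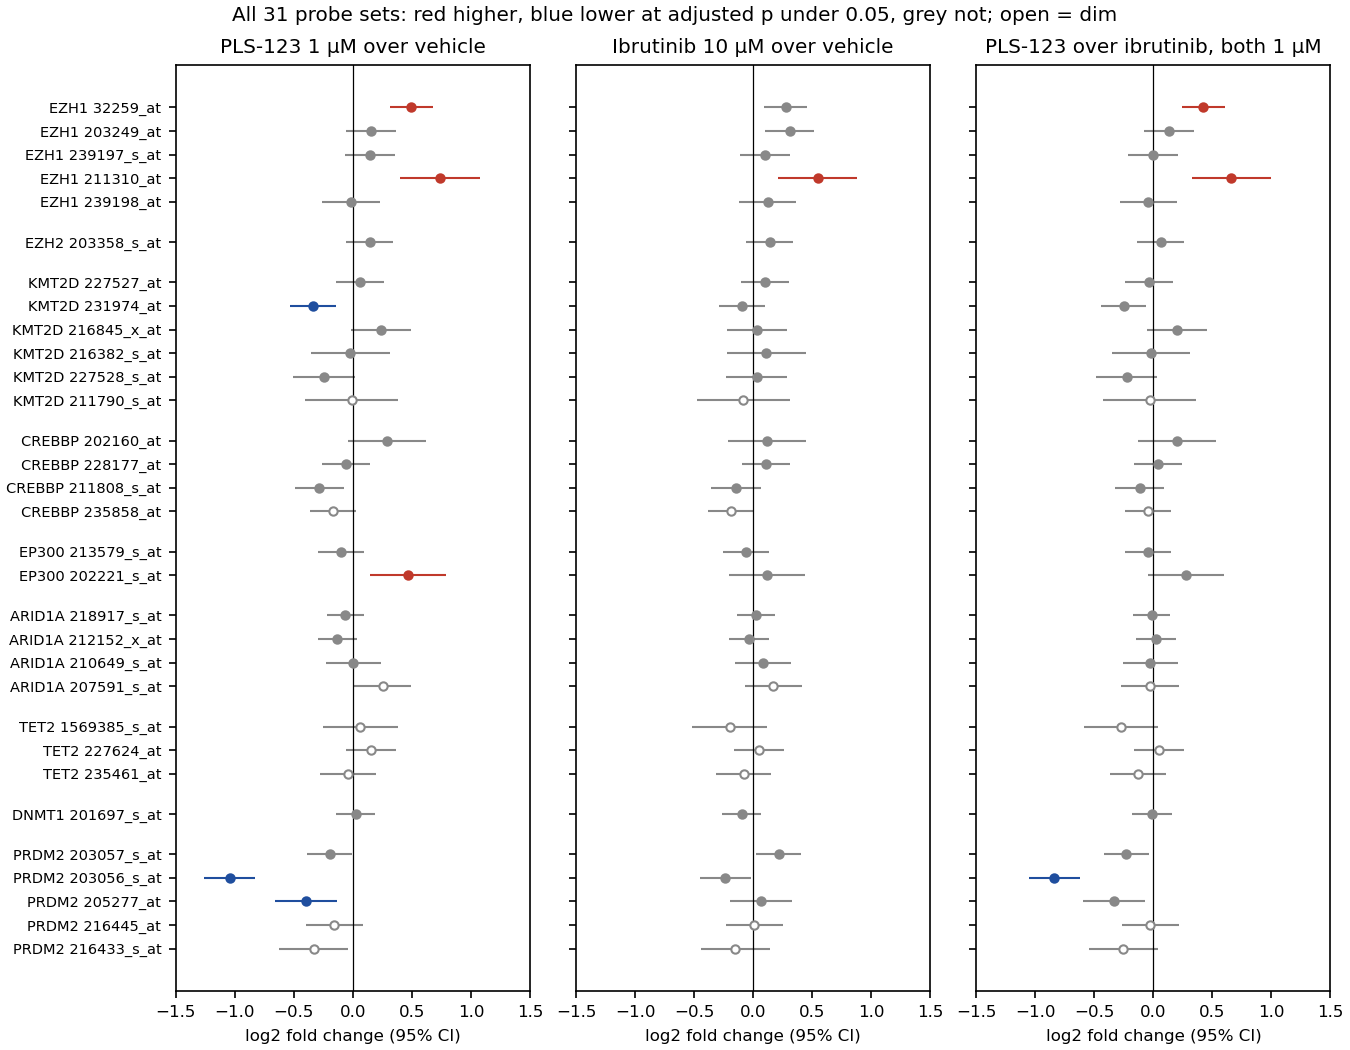
Log2 fold change with its 95% confidence interval for each of the 31 probe sets, brightest first within a gene, for PLS-123 over vehicle, 10 μM ibrutinib over vehicle and PLS-123 over 1 μM ibrutinib. The lowest value is PRDM2 203056_s_at at -1.04 and the highest EZH1 211310_at at 0.74, both with PLS-123 over vehicle, and most intervals of the other genes include 0.

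ARID1A (chromosome 1, 26696015 to 26782104) gave no call at any of its 4 probe sets in any comparison. Probe set 218917_s_at read 9.76, 9.70 and 9.83 with PLS-123, while 10 μM ibrutinib gave 9.83, 9.86 and 9.87, 1 μM ibrutinib 9.77, 9.80 and 9.77 and vehicle 9.85, 9.86 and 9.77. PLS-123 and vehicle overlapped, while all arrays of 10 μM ibrutinib lay above those of 1 μM ibrutinib and of PLS-123, by a narrow margin. The log2 fold change with PLS-123 over vehicle was -0.06 (95% confidence interval -0.22 to 0.09, limma adjusted p = 0.619). The other 3 ranged from -0.13 to 0.25, the last at a dim probe set.

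The enzymes that act on DNA methylation differed in how well they were measured. DNMT1 201697_s_at (chromosome 19, 10133346 to 10194953) read 10.92, 11.02 and 10.98 with PLS-123, while 10 μM ibrutinib gave 10.90, 10.80 and 10.85, 1 μM ibrutinib 10.93, 10.94 and 11.08 and vehicle 10.95, 10.90 and 10.99. PLS-123 and vehicle overlapped (log2 fold change 0.02, 95% confidence interval -0.14 to 0.19, limma adjusted p = 0.889). All 3 probe sets of TET2 (chromosome 4, 105145875 to 105279803) were dim, so that its level was poorly measured on these arrays. TET2 1569385_s_at read 2.32, 2.25 and 2.85 with PLS-123, while 10 μM ibrutinib gave 2.06, 2.13 and 2.44, 1 μM ibrutinib 2.60, 2.75 and 2.88 and vehicle 2.44, 2.46 and 2.34. It was called lower with 10 μM than with 1 μM ibrutinib (log2 fold change -0.54, adjusted p = 0.0392), beside 4.46% of all genes and 3.39% of all probe sets. The other 2 TET2 probe sets had -0.06 and -0.17 there, neither called, and the call was lost without any single vehicle array, without array B or C of 1 μM ibrutinib or without array A or B of 10 μM ibrutinib (adjusted p 0.052 to 0.153), and by the methods' t-test (adjusted p = 0.199).

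PRDM2 (chromosome 1, 13700188 to 13825079) held the largest change among the 31 probe sets, but not at its brightest. Probe set 203056_s_at read 7.16, 7.32 and 7.32 with PLS-123, while 10 μM ibrutinib gave 8.13, 8.15 and 7.96, 1 μM ibrutinib 8.13, 8.23 and 7.96 and vehicle 8.46, 8.28 and 8.21. The PLS-123 arrays lay far below all others, and both ibrutinib groups overlapped each other. All arrays of 10 μM ibrutinib lay below those of vehicle, by a narrow margin, while those of 1 μM ibrutinib overlapped vehicle. The intensity fell by 51.5% with PLS-123 over vehicle (log2 fold change -1.04 ± 0.10 SE, limma adjusted p = 6.85e-06). At the matched dose it was -0.84 over ibrutinib (95% confidence interval -1.05 to -0.62, adjusted p = 6.56e-05), and all 20 alternatives kept both calls, the ACTB covariate included. With 10 μM ibrutinib the log2 fold change over vehicle was -0.23 (adjusted p = 0.183) and with 1 μM ibrutinib -0.21 (adjusted p = 0.92).

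The brightest probe set of PRDM2, 203057_s_at, read 8.92, 8.96 and 8.97 with PLS-123, while 10 μM ibrutinib gave 9.29, 9.50 and 9.30, 1 μM ibrutinib 9.14, 9.32 and 9.08 and vehicle 9.16, 9.09 and 9.19. Its PLS-123 arrays were again the lowest without overlap, but by a smaller margin (log2 fold change -0.20, limma adjusted p = 0.162). With 10 μM ibrutinib it lay above vehicle by 0.22 (adjusted p = 0.168). Probe set 205277_at read 6.41, 6.24 and 6.34 with PLS-123, while 10 μM ibrutinib gave 6.64, 6.83 and 6.90, 1 μM ibrutinib 6.35, 6.85 and 6.79 and vehicle 6.72, 6.66 and 6.80. Its log2 fold change with PLS-123 over vehicle was -0.40 (adjusted p = 0.0394). That call was lost without any single array of PLS-123 or vehicle, without array B of 10 μM ibrutinib (adjusted p 0.0515 to 0.117), under centring on normalization controls (-0.37, adjusted p = 0.0635) and with the ACTB difference as a covariate (-0.27, adjusted p = 0.434). Without array A of 1 μM ibrutinib, which stood apart low in its group, PLS-123 over 1 μM ibrutinib was called (-0.49, adjusted p = 0.00576, against -0.33 and 0.0984 with all arrays). The remaining 2 probe sets were dim and had -0.16 and -0.33, so that all 5 were negative with PLS-123 and 2 passed.

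Within an array, the log2 value of 203056_s_at minus that of 203057_s_at averaged -1.68 ± 0.07 with PLS-123 (range -1.76 to -1.64), -1.28 ± 0.11 with 10 μM ibrutinib, -1.07 ± 0.06 with 1 μM ibrutinib, against -0.83 ± 0.14 with vehicle (SD, n = 3 arrays each, vehicle range -0.98 to -0.70). The absolute size of such a difference carries no meaning, since probe sets differ in brightness, but its spread between groups shows that the probe sets changed unequally. The pair was chosen after its values were seen, so no test is given. PRDM2 is known to give a long protein with the PR domain and a short one without it, from separate promoters, and which of these the probe sets read was not analysed here.

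**Figure D3:**
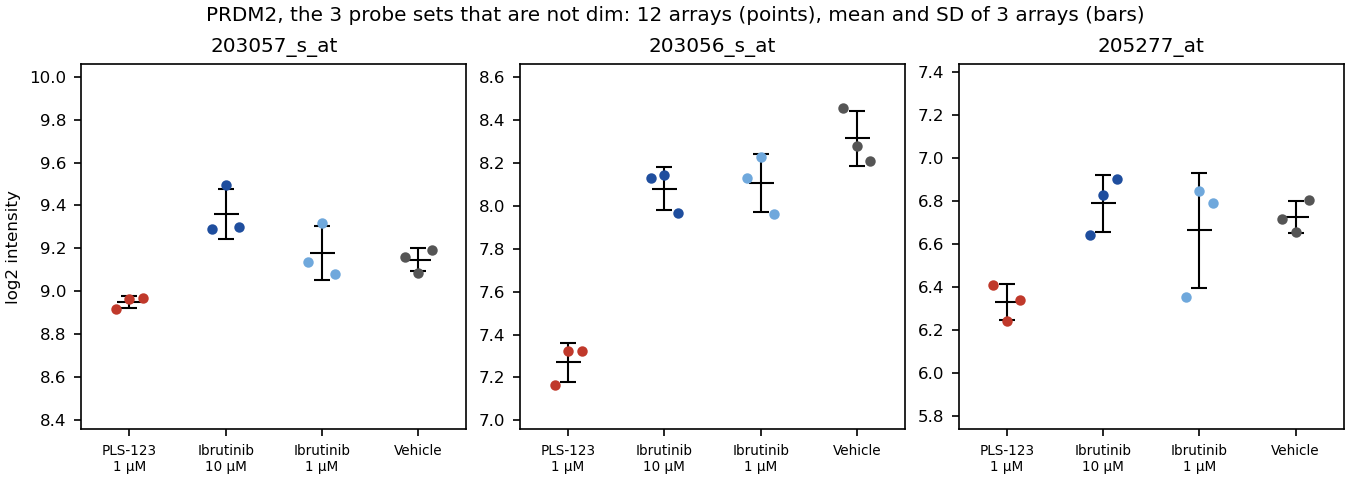
Log2 intensity of the 3 PRDM2 probe sets that are not dim, on the 12 arrays by group, with the mean and SD of 3 arrays as bars and 1.7 log2 units per panel. Probe set 203056_s_at drops to 7.16 to 7.32 with PLS-123, against 8.21 to 8.46 with vehicle, while 203057_s_at moves by -0.20.

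RefSeq lists 3 starts for PRDM2, and the 100 bases before each are shown on the plus strand of GRCh38.p14 because its probe sets disagreed. They are chr1:13700088-13700187, chr1:13703654-13703753 and chr1:13749315-13749414, with no motif marked:
PRDM2 start 1: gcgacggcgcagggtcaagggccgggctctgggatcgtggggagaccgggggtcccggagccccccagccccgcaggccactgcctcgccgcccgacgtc
PRDM2 start 2: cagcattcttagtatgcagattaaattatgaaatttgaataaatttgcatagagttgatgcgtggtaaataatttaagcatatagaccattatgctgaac
PRDM2 start 3: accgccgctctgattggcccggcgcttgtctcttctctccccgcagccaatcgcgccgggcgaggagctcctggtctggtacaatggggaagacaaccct
G and C made up 79% of the first stretch, 29% of the second and 65% of the third, and none of the PRDM2 windows held any of the 4 motifs searched. The arrays do not tell which start was used.

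At the matched dose of 1 μM, PLS-123 over ibrutinib, EZH1 was called higher and 0 of the 9 genes were called lower, against 5.78% higher and 10.1% lower over all genes. For the genes not called the 95% confidence intervals of this log2 difference were -0.14 to 0.26 for EZH2, -0.24 to 0.16 for KMT2D, -0.13 to 0.53 for CREBBP and -0.24 to 0.15 for EP300. They were -0.17 to 0.14 for ARID1A, -0.59 to 0.04 for TET2, -0.18 to 0.15 for DNMT1 and -0.42 to -0.04 for PRDM2 203057_s_at. The widest, for TET2 and CREBBP, thus leave room for a change as large as that of EZH1. Counted by probe set, 2 rose (EZH1 32259_at and 211310_at) and 1 fell (PRDM2 203056_s_at), against 4.58% higher and 7.93% lower. The call of EZH1 211310_at (log2 fold change 0.66) was lost by the methods' t-test (adjusted p = 0.24), with the ACTB difference as a covariate (0.46, adjusted p = 0.23) and without PLS-123 array A or array B or C of 1 μM ibrutinib (adjusted p 0.0539 to 0.062). With 1 μM ibrutinib over vehicle 0 of the 31 probe sets were called, beside 0% of all probe sets, where limma gave a smallest adjusted p of 0.282 and 2943 probe sets at an unadjusted p under 0.05. The values of PLS-123 at 1 μM and of ibrutinib at 10 μM stand side by side above, without a test, since the doses differ. The comparisons against vehicle share the same vehicle arrays, and both comparisons against 1 μM ibrutinib share its arrays.

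Other genes of the same complexes were taken from 10 lists, of which 98 of 106 genes were measured. The lists were chosen with earlier results of these data known, so the shares below describe them only and were not tested. With PLS-123 over vehicle 19 of the 98 fell and 14 rose, which is 19.4% lower and 14.3% higher, beside 12.8% and 7.54% over all genes. For 10 μM ibrutinib 10 fell and 18 rose (10.2% and 18.4%, beside 5.82% and 6.71%), and with PLS-123 over 1 μM ibrutinib 12 fell and 13 rose (12.2% and 13.3%, beside 10.1% and 5.78%). Of the 98 genes 5 were dim, while of all 19775 genes 12039 others beside EZH1 were not dim, so the lists and the background differ in brightness. The median fold change of the 98 genes was -0.02 with PLS-123, beside -0.04 over all genes. The direction differed between lists and between the genes of a list.

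Around EZH1 and EZH2, 3 of 9 PRC2 partners fell and 1 rose with PLS-123, beside 12.8% lower and 7.54% higher over all genes. PHF19, which helps to bring PRC2 to its targets, fell by 0.81 on the log2 scale (limma adjusted p = 1.47e-05), and MTF2 and PHF1, proteins of the same Polycomb-like family, also fell, MTF2 at -0.30 (adjusted p = 0.0167) and PHF1 at -0.27 (adjusted p = 0.0318). RBBP7, a histone-binding subunit, rose by 0.40 (adjusted p = 0.00143), while the core subunits EED and SUZ12 had -0.14 and 0.10, not called. KDM6B, which removes the mark of PRC2, fell by 0.60 (adjusted p = 0.000382), and KDM6A had -0.03. Of 12 measured genes of Polycomb repressive complex 1 (PRC1), 4 rose and 1 fell (33.3% and 8.33%, against the same shares over all genes). The 4 were PCGF5 (0.94), PHC2 (0.54), PHC1 (0.53) and CBX2 (0.46), at adjusted p of 0.00174 or less, and all 4 also rose with 10 μM ibrutinib (0.93, 0.76, 0.67 and 0.73).

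Around KMT2D, 3 of 13 methyltransferases and partners fell and 2 rose (23.1% and 15.4%, beside 12.8% and 7.54% over all genes), among them WDR5, a shared core subunit, at -0.40 (limma adjusted p = 0.0122), PAXIP1, a partner of KMT2D, at 0.39 (adjusted p = 0.00844), and SETD1B, another H3K4 methyltransferase, at 0.39 (adjusted p = 0.0105). The lists that follow hold few genes, and their counts are a description beside the same shares. Of 4 H3K4 demethylases 1 fell, KDM5A at -0.35 (adjusted p = 0.0171). None of the 7 other histone acetyltransferases was called, and their range was -0.12 to 0.10. Of 7 measured genes listed as repressors or corepressors that oppose CREBBP and EP300, 2 fell and 1 rose. The values of the 1 that rose are not reported here. BCL6, the repressor of the germinal centre, had means of 10.31 with PLS-123, 10.44 with 10 μM ibrutinib, 11.84 with 1 μM ibrutinib, against 11.77 with vehicle. Its log2 fold change was -1.45 with PLS-123 (adjusted p = 2.19e-08) and -1.33 with 10 μM ibrutinib (adjusted p = 5.59e-08), and it is also one of the B-cell markers whose sum is given above. HDAC1, a histone deacetylase, fell by 0.25 (adjusted p = 0.0285).

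Around ARID1A, 3 of 23 SWI/SNF subunits fell and 2 rose, and these shares, 13% and 8.7%, were near the 12.8% and 7.54% of all genes. SS18 had a log2 fold change of -0.61 (limma adjusted p = 5.73e-05) and DPF2 of -0.36 (adjusted p = 0.00788), while SMARCE1 rose by 0.52 (adjusted p = 0.00371). Of 14 genes of DNA methylation and demethylation beside DNMT1 and TET2, 3 fell and 4 rose (21.4% and 28.6%). MBD2, a reader of methylated DNA, fell by 0.85 (adjusted p = 1.28e-06), and it fell by 0.77 with 10 μM ibrutinib (adjusted p = 3.77e-06). UHRF2, a relative of the DNMT1 partner UHRF1, rose by 0.68 (adjusted p = 0.000392), IDH2, which makes the TET cofactor 2-oxoglutarate, by 0.59 (adjusted p = 0.000446) and DNMT3B, a de novo methyltransferase, by 0.55 (adjusted p = 0.000912).

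**Figure D4:**
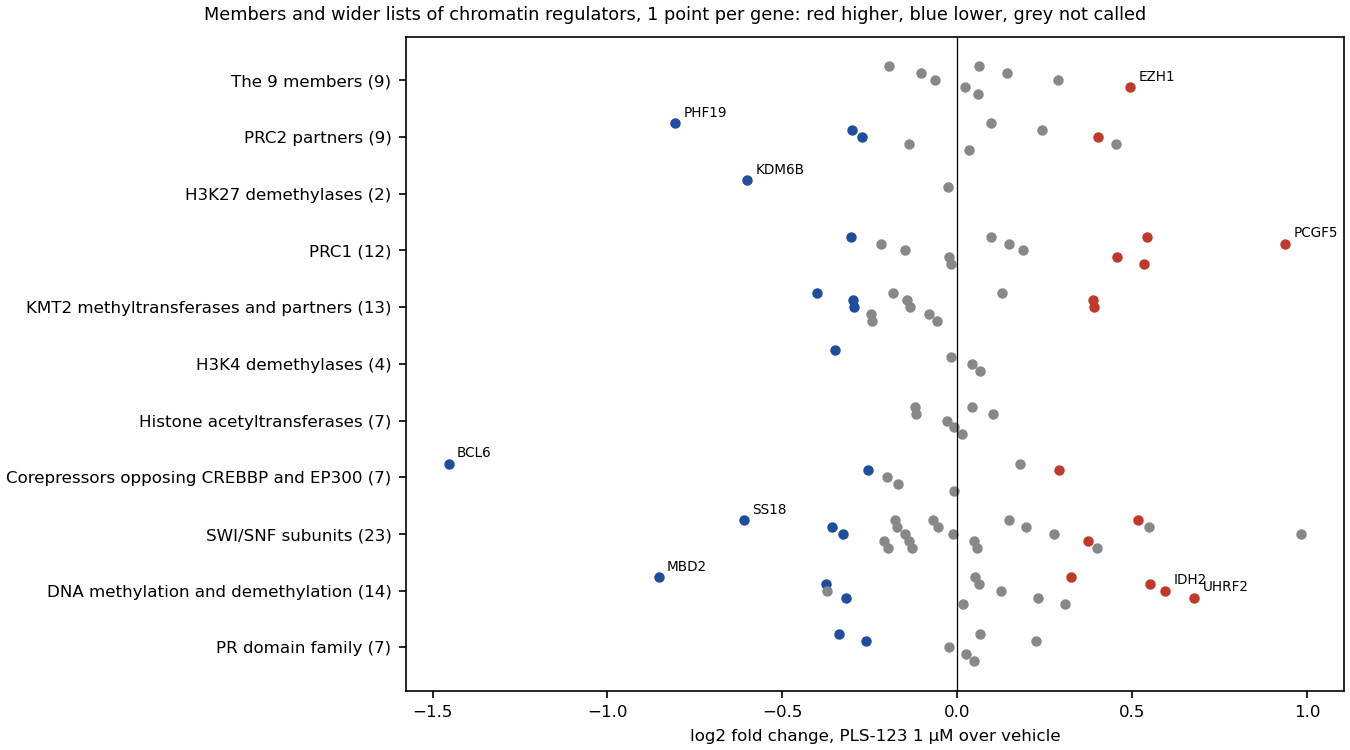
Log2 fold change with PLS-123 over vehicle for the 9 genes and for 10 wider lists of chromatin regulators, 1 point per gene at its brightest probe set, with the number of measured genes in brackets. BCL6 at -1.45, MBD2 at -0.85, PHF19 at -0.81 and PCGF5 at 0.94 lie outside the range of the 9 genes, which run from -0.20 to 0.50.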

How the data were processed

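RNA of 12 samples of OCI-Ly7 cells, 3 per group, was measured on Affymetrix U133 Plus 2.0 arrays. The authors deposited intensity values normalized by RMA, per the labels, with a version that is not given in the sources used here. The deposited intensity values are on the linear scale (2.1 to 15751, array medians 14.2 to 14.8), so log2 was taken and nothing was added. RMA centres the arrays on each other, which can hide a shift common to most genes. Control probe sets (62) were left out. Of 54613 probe sets tested, 41091 carry a single symbol, 1801 several and 11721 none.

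limma 3.58.1 in R 4.3.3 was fitted over the 12 arrays together, with a mean for each group and 8 residual degrees of freedom, with two-sided moderated tests and Benjamini-Hochberg adjustment within each of the 5 comparisons. The script was tested on simulated data. The number of arrays limits the precision. Same-letter arrays were not paired. The 9 genes and all lists were chosen with earlier results of these data known. All 9 genes were named, with up to 4 called genes of each wider list, those of smallest adjusted p with PLS-123 over vehicle, and genes most like a called gene. The lists were PRC2 partners, H3K27 demethylases, PRC1, KMT2 methyltransferases and partners, H3K4 demethylases, histone acetyltransferases, and repressors or corepressors. The others were SWI/SNF subunits, DNA methylation, the PR domain family, replication genes and the cell type markers.

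The alternatives were a t-test as in the study's methods but with Benjamini-Hochberg adjustment, limma on 2 groups alone or with an intensity trend, a replicate block, quantile normalization, centring on 100 normalization controls, dim probe sets left out, the brightest probe set per gene only, the median over a gene's probe sets, the ACTB difference as a covariate and each array left out. Start sequences came from RefSeq (GRCh38.p14), matched by symbol for all 9 genes.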

Additional observations from a re-analysis of the deposited data

How the results depend on the processing

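Of 70 values examined under up to 22 alternatives, 12 of which left out 1 array, 54 stayed on their side of the threshold throughout. These include 3 of 11 values that passed and 51 of 59 that did not. The 3 were EZH1 32259_at with PLS-123 over vehicle (log2 fold change 0.35 to 0.57) and PRDM2 203056_s_at with PLS-123 over vehicle (-1.10 to -0.97) and over 1 μM ibrutinib (-0.91 to -0.76). No called value turned its direction.

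Among the 9 genes, 1 in place of 0 was higher with 10 μM ibrutinib over vehicle, namely EZH1, under the intensity trend, centring on normalization controls, dim probe sets left out and the brightest probe set only. With PLS-123 over 1 μM ibrutinib, 0 in place of 1 was higher under the t-test, the median over probe sets and the ACTB covariate, and 1 in place of 0 was lower, PRDM2, under the intensity trend and without dim probe sets (leaving out 1 array, 0 to 1, with TET2 lower without PLS-123 array C, at -0.46). With 10 μM over 1 μM ibrutinib, 0 in place of 1 was lower under the t-test, centring, dim probe sets left out and the median (leaving out 1 array, 0 to 1). With PLS-123 over vehicle, 1 in place of 0 was lower under the median, PRDM2. With the ACTB covariate EP300 202221_s_at, KMT2D 231974_at, PRDM2 205277_at and EZH1 211310_at were no longer called. The ACTB difference was 2.80 to 3.17 with PLS-123, against 2.59 to 2.68 with vehicle. Since these ranges do not overlap, this covariate cannot tell the compound and the RNA quality apart.

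Sample letters carried no pairing (residual correlations -0.21 to 0.15 for 18 same-letter pairs and -0.18 to 0.22 for 36 others). The replicate block took EZH1 211310_at with 10 μM ibrutinib over vehicle, at 0.55, to an adjusted p of 0.0544, and changed no other call.

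Over all probe sets, PLS-123 over vehicle gave 5664 lower and 3476 higher, against 3398 and 1733 by t-test, 1928 and 1552 with the ACTB covariate, 2925 and 1716 with 1 probe set per gene, 4715 and 4276 under quantile normalization and 4538 and 3917 under centring. PLS-123 over 1 μM ibrutinib gave 4333 lower and 2502 higher, against 1103 and 731 by t-test, 1695 and 1279 with the ACTB covariate, 2453 and 1317 with 1 probe set per gene, 2792 and 1812 on 2 groups alone and 2698 and 1901 without array B of 1 μM ibrutinib, while centring gave 3142 and 2994 and quantile normalization 3447 and 3052. With 10 μM ibrutinib over vehicle 2523 were lower and 2944 higher, against 1737 and 1761 by t-test and 1422 and 1518 with 1 probe set per gene. With 10 μM over 1 μM ibrutinib 1852 were lower and 2304 higher, against 593 and 838 by t-test and 1099 and 1227 with 1 probe set per gene. For 1 μM ibrutinib over vehicle the count was 0, and 6 lower and 7 higher under the intensity trend.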

Other observations

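In the PR domain family, to which PRDM2 belongs, 2 of 7 other measured genes fell with PLS-123 over vehicle and 0 rose, beside 12.8% lower and 7.54% higher over all genes. PRDM10 fell by 0.34 on the log2 scale (limma adjusted p = 0.00567) and fell by 0.35 with 10 μM ibrutinib (adjusted p = 0.00573), and PRDM4 fell by 0.26 (adjusted p = 0.0309), against -0.03 with 10 μM ibrutinib (adjusted p = 0.863). PRDM1, the regulator of plasma cell differentiation, had -0.02 and was not called. Of 16 replication and cell cycle genes, which are active in the same dividing cells as EZH2 and DNMT1, 3 fell and 1 rose with PLS-123 (18.8% and 6.25%, against those shares over all genes), and MKI67, a marker of dividing cells, fell by 0.52 (adjusted p = 0.002). The median of the 16 genes was -0.01. Their summed intensity was 32930 to 34753 with PLS-123, against 31962 to 32826 with vehicle, so MKI67 does not stand for the list.

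Over the 12 arrays and 12039 genes other than EZH1 whose brightest probe set is not dim, the log2 intensity most like that of EZH1 32259_at was that of BPHL (Pearson r 0.966), TUBA4B (0.960) and TUBA1A (0.960). The arrays share their groups, so these correlations describe the pattern only.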
